A study of Mus musculus with 3 samples.

Results

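Lgr5+ interzone cells of the mouse forelimb digit at E14.5 (embryonic day) were compared with Sox9+ cells of the digit at E13.5, 1 RNA-seq library against 1. The Lgr5+ cells were the GFP-positive cells of Lgr5-eGFPCreERT2/+ embryos, and the Sox9+ cells were the GFP-positive cells of Sox9-eGFP/+ embryos, whose limb the labels do not name. A library of GFP-negative forelimb digit cells from Lgr5-eGFPCreERT2/+ embryos at E14.5, labelled non-interzone, is given beside both as the Lgr5- library. All mice are labelled C57/bl6, no treatment is given, and each GFP reporter was carried on a single allele. Both gates rest on reporter brightness and not on position in the digit, and how many embryos and cells went into each library was not given in the sources used here. Stage, mouse line, gate and perhaps limb differ together between the Lgr5+ and Sox9+ libraries, so their parts in a difference cannot be told apart. The members of the comparison were the gene symbols at 1 FPKM or more in the higher of the 2 libraries, which were 12492 of the 23284 listed. FPKM are fragment numbers divided by the length of the transcript and by library size. With 1 library on each side no difference has a replicate check, no test was possible, and every statement compares these libraries.

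A synovial joint begins as the interzone, a band of flattened cells that appears across a continuous cartilage rod, secretes the growth factor Gdf5, and later gives rise to articular cartilage, ligaments and the joint lining. The rod itself is made by chondrocytes under the transcription factor Sox9, which lay down type II collagen and aggrecan. Chondrocytes away from the joint then mature through an Indian hedgehog-producing stage towards hypertrophy and bone.

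Ratios are of FPKM + 1, Lgr5+ over Sox9+, on a log2 scale, and a fold is the same ratio on a linear scale, which understates the difference of low genes. Of the 12492 measured genes 1036 (8.29%) were 2-fold or more apart, 541 (4.33%) with the higher level in Lgr5+ cells and 495 (3.96%) with the lower, and 11456 lay within 2-fold. The median over all measured genes was 0.06, and these values are the background for every gene list that follows. The split between directions depended on scaling. Of the genes at least 2-fold apart, 52.2% were higher in the Lgr5+ library with the deposited values, 58.6% with the sum taken without the ribosomal RNA precursor Rn45s and Lars2, and 64.8% after rescaling to TPM, which moved the median of all genes by 0.15. Among the higher genes 93 reached 4-fold and 18 reached 8-fold, and among the lower genes 79 and 28 did. Genes at exactly 1 FPKM sat just inside the minimum and genes at 0.99 FPKM just outside it. A gene under the minimum in 1 library could be counted only through the other, which fixed its direction. Where 3 FPKM values are joined below, they are those of the Lgr5+, Sox9+ and Lgr5- libraries in that order.

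**Figure D1:**
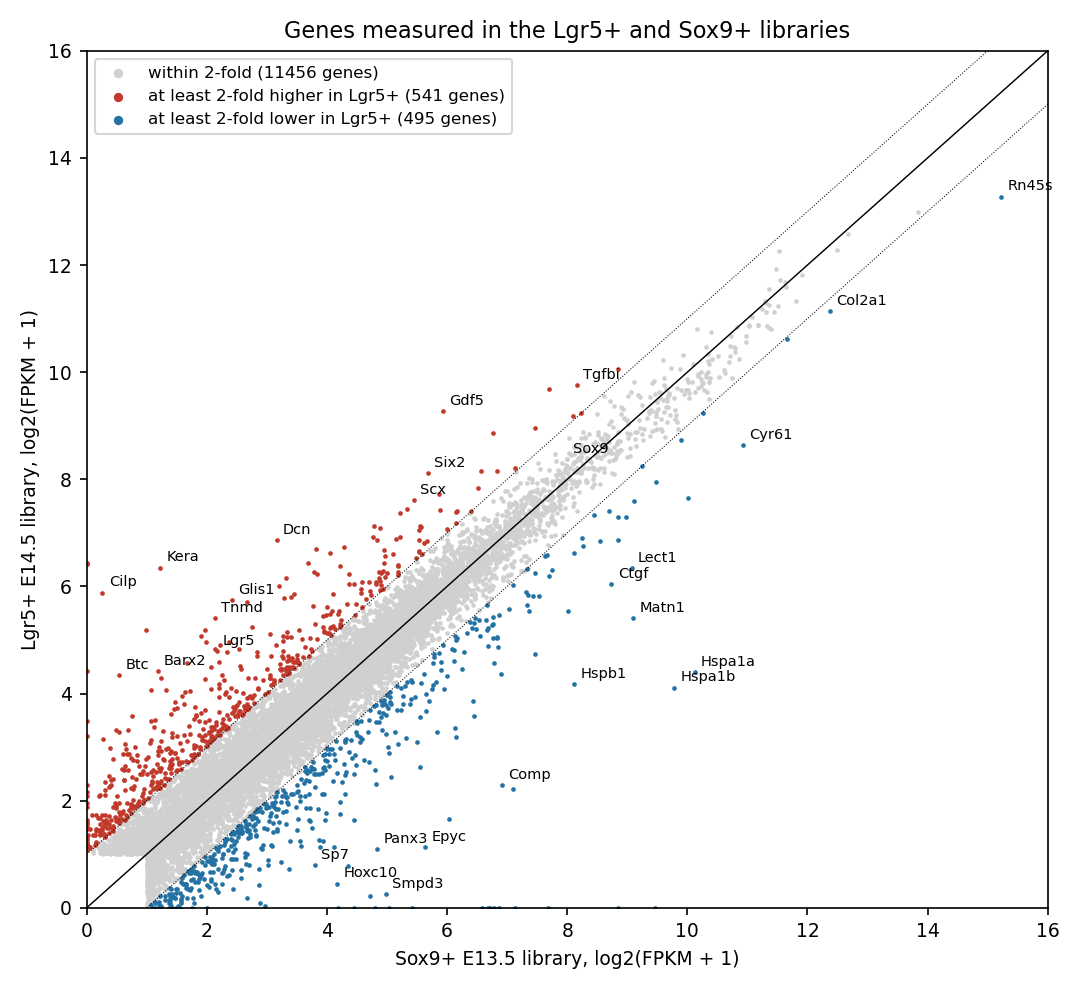
Each point is 1 of the 12492 measured genes, with log2(FPKM + 1) of Sox9+ cells on the x axis and of Lgr5+ cells on the y axis, and dotted lines mark 2-fold. The joint and tendon genes Cilp, Kera, Dcn and Gdf5 lie far above the diagonal, and Hspa1a, Hspa1b, Comp and Smpd3 lie far below it.

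The sorting genes were checked in their own RNA. Lgr5, which encodes an R-spondin receptor, stood at 26.8 FPKM in Lgr5+ cells, 3.48 FPKM in Sox9+ cells and 1.36 FPKM in Lgr5- cells, 6.19-fold higher in the library sorted on its reporter. Sox9 stood at 332 FPKM in Lgr5+ cells, 255 FPKM in Sox9+ cells and 147 FPKM in Lgr5- cells. Its RNA was thus not highest in the cells sorted on the Sox9 reporter, and Lgr5+ and Sox9+ cells lay within 2-fold. The deposited values hold no row for GFP, so the gates themselves could not be read. The long non-coding RNA Xist, made from the inactive X chromosome of female cells, stood at 2.96, 6.45 and 3.11 FPKM, and the Y-linked gene Ddx3y at 7.15, 7.64 and 7.38 FPKM, so both were present in each library, and the 5 sex-linked genes lay within 2-fold.

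Interzone genes were mostly higher in the Lgr5+ library. Of 20 listed genes all 20 were measured, 11 were at least 2-fold higher and none 2-fold lower, with a median log2 ratio of 1.28. The gene lists, some of which share genes, were chosen with earlier results of these data known. Their counts describe these libraries and are not a test. Gdf5 stood at 615 FPKM in Lgr5+ cells, 59.9 FPKM in Sox9+ cells and 71.7 FPKM in Lgr5- cells, a difference of 555 FPKM and 10.1-fold. The Sox9+ and Lgr5- libraries lay close together for this gene and the Lgr5+ library stood far above both. Several transcription factor genes were also highest in the Lgr5+ library. Barx2, a homeobox gene, stood at 20.4, 1.27 and 0.25 FPKM, 9.43-fold higher than in the Sox9+ library. The zinc finger genes Osr1 and Osr2, which mark prospective joints in the limb, were 5.59-fold higher (76.4, 12.8 and 47.6 FPKM) and 2.53-fold higher (116, 45.1 and 35.6 FPKM). Erg, an ETS factor of the articular layer, stood at 25.2, 10.3 and 9.99 FPKM and Creb5, a factor linked to articular cartilage, at 49.9, 19.1 and 25.8 FPKM. Of these genes, Osr1 had an Lgr5- value that lay nearer to the Lgr5+ than to the Sox9+ value.

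Several secreted products of the interzone list were higher as well. Enpp2, the enzyme autotaxin that makes lysophosphatidic acid, stood at 138, 26.5 and 49.6 FPKM. Dkk3, a secreted member of the Dickkopf family, stood at 165, 36.2 and 37.7 FPKM, 4.46-fold higher. Chrd, which encodes the BMP-binding antagonist chordin, stood at 11.4, 2.72 and 5.69 FPKM. The members within 2-fold included the best-known Wnt ligand and BMP antagonist genes of the interzone. Wnt9a, which represses chondrogenesis at the joint, stood at 7.17, 3.13 and 3.77 FPKM and narrowly missed 2-fold, at a log2 ratio of 0.98. Nog, the BMP antagonist noggin, stood at 62.8, 56.5 and 22.4 FPKM, Wnt16 at 0.97, 1 and 0.53 FPKM and the hyaluronan receptor gene Cd44 at 1.58, 2.1 and 2.93 FPKM.

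Genes of articular cartilage and synovium were measured in 16 of 17 cases, with 7 at least 2-fold higher, 1 at least 2-fold lower and a median of 0.95, and 3 of the 7 passed the minimum only through the Lgr5+ library. The highest ratio of all genes with a value above 0 in both libraries was that of Cilp, a protein of the intermediate zone of articular cartilage. Cilp stood at 58.03 FPKM in Lgr5+ cells, 0.2 FPKM in Sox9+ cells and 0.75 FPKM in Lgr5- cells, 49.2-fold higher. Col22a1, a collagen of tissue junctions, stood at 15.8, 1.5 and 1.93 FPKM, and Thbs4, a thrombospondin of tendon and muscle attachments, at 12.9, 2.09 and 2.94 FPKM. All these were low in both other libraries. Dpt, which encodes dermatopontin, differed from them in its Lgr5- value, at 3.23, 0.42 and 3.07 FPKM, with the Lgr5- library as high as the Lgr5+ library. Hyaluronan fills the joint space, and of the genes of its metabolism the hyaluronidase gene Hyal2 was 2.17-fold higher (64.2, 28.98 and 52.5 FPKM) and the synthase gene Has2 stood at 11.6, 5.57 and 6.16 FPKM. Ugdh, which makes the sugar precursor of hyaluronan and of sulfated chains, stood at 93.7, 159 and 60.4 FPKM. Prg4, the lubricin gene of the mature joint surface, was low in each library, at 1.19, 2.36 and 1.14 FPKM. Tnc, the tenascin C gene, was the member at least 2-fold lower (39.4, 82.03 and 36.1 FPKM), and it came within 2-fold under at least 1 other scaling.

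Tendon and ligament genes had a higher median than interzone genes, at 1.73, with 13 of 18 measured members at least 2-fold higher and 1 at least 2-fold lower. Scx, the transcription factor gene scleraxis that marks tendon progenitors, stood at 195, 42.5 and 80.6 FPKM, 4.49-fold higher. Mkx, a homeobox gene of tendon, stood at 32.6, 8.59 and 29.1 FPKM, and Tnmd, the tendon membrane protein tenomodulin, at 41.6, 3.38 and 16.01 FPKM, 9.73-fold higher. For Scx and Tnmd the Lgr5- value lay between the other libraries, and for Mkx it was close to the Lgr5+ value. Six2 and Eya2, which encode partner factors of muscle and tendon, were also higher. Six2 stood at 277, 50.3 and 53.9 FPKM, 5.42-fold higher, and Eya2 at 33.8, 7.32 and 22.8 FPKM. Tgfbi, a TGF-beta-induced matrix protein, was among the 15 largest gains in level, at 864, 285 and 137 FPKM. The collagens of fibril surfaces in tendon, Col12a1 (32.9, 31.6 and 31 FPKM) and Col14a1 (7.05, 5.92 and 5.34 FPKM), lay within 2-fold. The lower member was Egr1 (603, 1221 and 669.5 FPKM), a tendon factor that is also an immediate early gene. Egr1 lay close to 2-fold, at a log2 ratio of −1.02, and its call under other scalings was not checked. Muscle markers were higher in the same library, with a summed level of 137 FPKM against 38.6 FPKM in the Sox9+ library, and the Lgr5- library, where Scx stood at 80.6 FPKM, had a muscle sum of 39.8 FPKM. The part of muscle cells in the tendon values was not tested. In bulk libraries such as these, fewer cells of a type and less RNA per cell cannot be told apart.

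**Figure D2:**
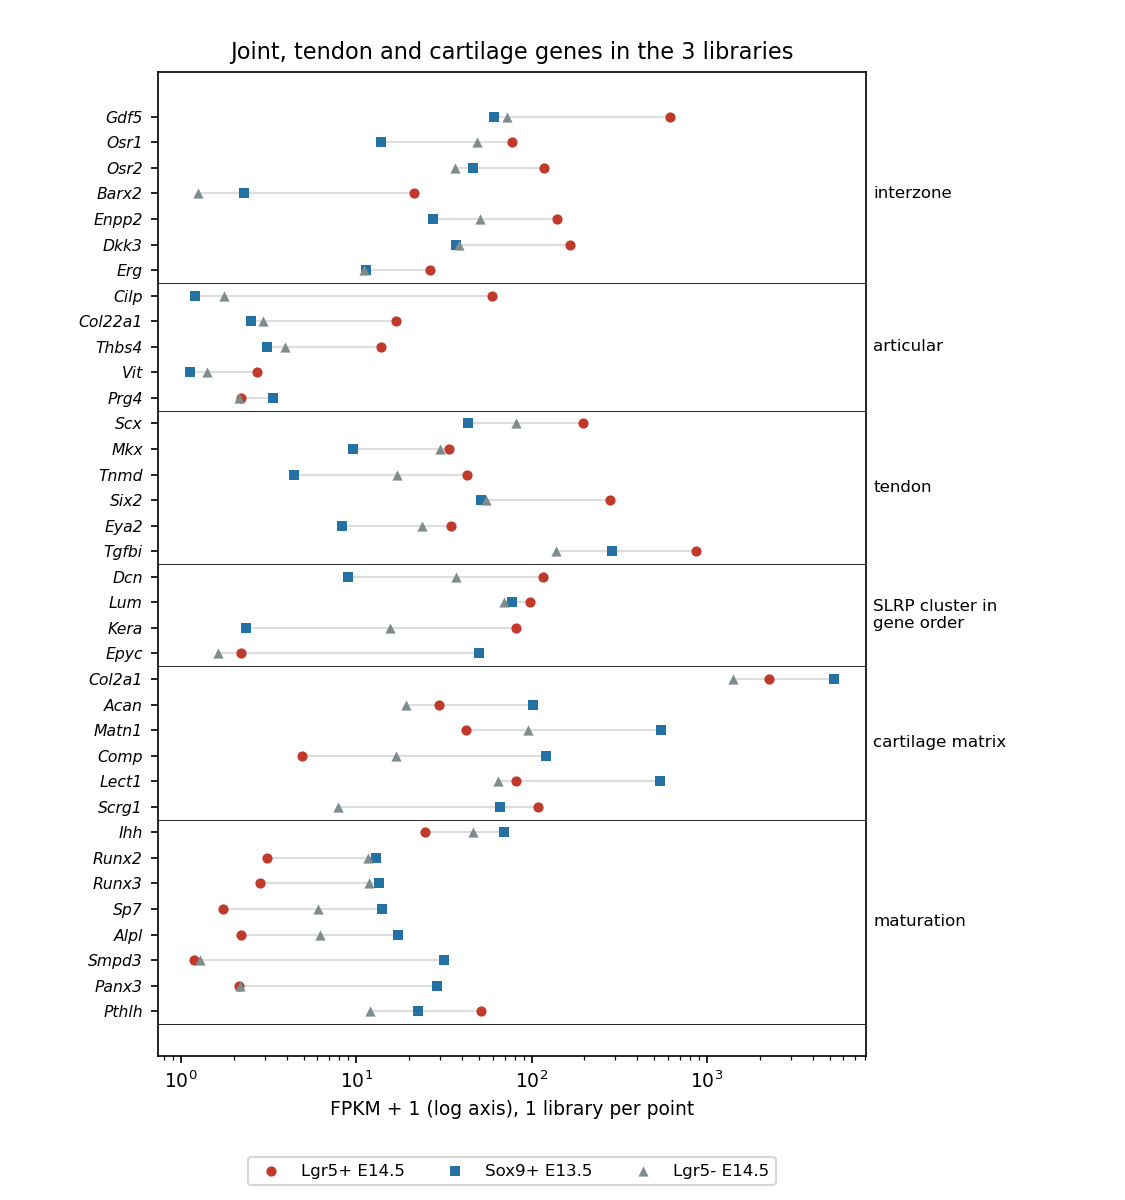
FPKM + 1 on a log axis for genes of the interzone, articular, tendon, cartilage and maturation lists and for the proteoglycan gene cluster of chromosome 10, with 1 point for each of the 3 libraries. Lgr5+ points lie to the right for the interzone and tendon genes and for Cilp, Col22a1 and Thbs4. Sox9+ points lie to the right for Prg4, Matn1, Comp, Panx3 and Smpd3, and Runx2 and Runx3 have Lgr5- points near the Sox9+ points.

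Small leucine-rich proteoglycans, which bind collagen fibrils and set their thickness, went both ways, with 3 of 14 measured genes (18 listed) at least 2-fold higher, 1 at least 2-fold lower and a median of 0.34. Of these 4 genes 3 lie in a single gene cluster. On chromosome 10 of GRCm38 Dcn (97479609 to 97518143), Lum (97565128 to 97572703), Kera (97606879 to 97613692) and Epyc (97644068 to 97682454) lie in this order on the plus strand, and no other protein-coding gene is annotated in that span of 203 kb. Dcn, the decorin gene, stood at 115 FPKM in Lgr5+ cells, 7.97 FPKM in Sox9+ cells and 35.98 FPKM in Lgr5- cells, 12.96-fold higher. Its neighbour Lum, the lumican gene, stood at 96.5, 75.7 and 68.9 FPKM and lay within 2-fold. Kera, the keratocan gene, stood at 80.6 FPKM in Lgr5+ cells, 1.34 FPKM in Sox9+ cells and 14.52 FPKM in Lgr5- cells, 34.9-fold higher and the next ratio after Cilp. Epyc, the epiphycan gene of growth cartilage, went the other way, at 1.2 FPKM in Lgr5+ cells, 48.8 FPKM in Sox9+ cells and 0.63 FPKM in Lgr5- cells, 22.6-fold lower. In the Lgr5- library Dcn and Kera were intermediate and Epyc was as low as in the Lgr5+ library. Fmod, the fibromodulin gene on another chromosome, was the third higher member, at 134.56, 28.6 and 24.4 FPKM. The cluster Omd, Ogn and Aspn held no gene past 2-fold, with Omd lowest at 3.72, 7.96 and 3.38 FPKM.

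Cartilage matrix genes were lower in the Lgr5+ library, with 13 of its 22 measured genes at least 2-fold lower, 2 at least 2-fold higher and a median of −1.25. The gene of the main cartilage collagen, Col2a1, was measured at 2253 FPKM in Lgr5+ cells, 5304 FPKM in Sox9+ cells and 1401 FPKM in Lgr5- cells, 2.35-fold lower. The chains that form mixed fibrils with it were lower too, Col11a1 at 169.9, 412 and 105 FPKM and Col11a2 at 193, 553 and 132 FPKM. The type IX chains, which coat those fibrils, lay close to 2-fold, with Col9a1 just past it (302, 608 and 184 FPKM) and Col9a2 inside it (480.0, 766 and 217 FPKM). Acan, the aggrecan core protein, was 3.45-fold lower (28.6, 101 and 18.3 FPKM) and Hapln1, the link protein that ties aggrecan to hyaluronan, 2.76-fold lower (38.1, 107 and 20.1 FPKM). In all of these the Lgr5+ value stood between the Sox9+ and the Lgr5- values.

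The matrilins, which bridge collagen fibrils and proteoglycans, differed among themselves. Matn1 stood at 41.5 FPKM in Lgr5+ cells, 546 FPKM in Sox9+ cells and 93.8 FPKM in Lgr5- cells, 12.9-fold lower, and Matn3 at 20.7, 58.99 and 16.5 FPKM. Matn4 stood at 533, 906 and 331 FPKM and lay within 2-fold, while Matn2 was 2.48-fold higher (17.97, 6.65 and 10.7 FPKM). Comp, the pentameric cartilage oligomeric matrix protein, stood at 3.9 FPKM in Lgr5+ cells, 119.7 FPKM in Sox9+ cells and 15.8 FPKM in Lgr5- cells, 24.6-fold lower. For Matn1 and Comp the Lgr5+ library was the lowest of the 3, unlike Col2a1. Lect1, which encodes the antiangiogenic protein chondromodulin, stood at 80.2, 537 and 63.5 FPKM, 6.63-fold lower, whereas its relative Tnmd was higher. Snorc (listed as 3110079O15Rik), a membrane proteoglycan of chondrocytes, stood at 22.8, 108 and 11 FPKM. Scrg1, a small secreted chondrogenic protein, and Chad, chondroadherin, lay within 2-fold of the Sox9+ library, at 107, 65.1 and 6.9 FPKM and 49.4, 64.98 and 16.2 FPKM.

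The transcription factors of chondrogenesis did not share this direction. Of 8 Sox genes none was at least 2-fold higher, 1 was at least 2-fold lower, and the median was 0.36. Sox5 and Sox6, the partners of Sox9 on cartilage enhancers, stood at 35.1, 21.3 and 10.02 FPKM and 38.6, 30.3 and 10.96 FPKM. Sox4 (701, 417 and 318 FPKM) and Sox11 (133, 79.1 and 107 FPKM), of the SoxC group, were also somewhat higher but within 2-fold. Sox13 was the member 2-fold lower, at 2.59, 8.05 and 5.08 FPKM. Genes that build sulfated sugar chains leaned lower, with a median of −0.38 and 5 of 27 measured genes lower by 2-fold or more and none higher. Xylt1, which starts the chain, was 2.75-fold lower (3.26, 10.7 and 4.44 FPKM) while its paralog Xylt2 stood at 18.6, 12.5 and 14.6 FPKM. Slc26a2, the sulfate transporter of cartilage, stood at 7.58, 22.6 and 6.11 FPKM, the chondroitin sulfotransferase gene Chst11 at 4.75, 14.1 and 4.4 FPKM and the chain-starting enzyme gene Csgalnact1 at 7.84, 19.03 and 10.6 FPKM. The polymerases of chondroitin and heparan sulfate chains lay within 2-fold, Chsy1 at 52.2, 64.02 and 44.1 FPKM and Ext1 at 32.6, 36.6 and 32.2 FPKM.

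Fibrillar collagen genes had 4 of 10 measured members at least 2-fold lower, of which 3 were the cartilage chains given above, and none higher, and their median of −0.06 became 0.09 after TPM rescaling. Col1a1 stood at 1198, 769 and 998 FPKM and Col3a1 at 342, 368 and 416 FPKM. Among 24 measured genes of the other collagens 5 were at least 2-fold higher and 3 at least 2-fold lower, with a median of 0.08. Of the 5, 2 passed the minimum only through the Lgr5+ library. Col13a1, a transmembrane collagen, was 4.56-fold higher (6.98, 0.75 and 4.35 FPKM), and Col6a1, of the pericellular type VI collagen, 2.37-fold higher (167, 69.95 and 82.6 FPKM) while its partner chain Col6a3 stood at 27.5, 27.7 and 29.98 FPKM. Col26a1 (listed as Emid2) stood at 96.1, 33.2 and 66.1 FPKM. Col15a1, of a basement membrane collagen, was 3.62-fold lower (2.15, 10.4 and 3.93 FPKM). Of 25 genes for collagen folding and crosslinking 1 was higher and 3 were lower, with a median of −0.11 that became 0.04 after TPM rescaling. Pcolce2, an enhancer of procollagen cleavage, was 3.60-fold lower (8.77, 34.2 and 14.54 FPKM). The procollagen proteinase gene Adamts2, which acts on fibrillar procollagens, was 2.29-fold higher (7.09, 2.54 and 9.58 FPKM) and its relative Adamts3 2.19-fold lower (2.9, 7.53 and 4.01 FPKM). Matrix proteases and their inhibitors had 2 of 27 measured members higher and 3 lower, with Adamts1 2.71-fold lower at 47.03, 129 and 68.1 FPKM and Mmp11 highest at 77.6, 29.5 and 125 FPKM.

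Genes of chondrocyte maturation had the lowest median of any list of more than 10 measured genes, at −2.07, with 12 of 15 measured (16 listed) at least 2-fold lower and 1 at least 2-fold higher, and 4 of the 12 passed the minimum only through the Sox9+ library. Ihh, the hedgehog ligand of prehypertrophic chondrocytes, stood at 23.5, 68.7 and 45.4 FPKM, 2.84-fold lower. The osteochondral transcription factor genes Runx2 (2.1, 12.02 and 10.7 FPKM), Runx3 (1.81, 12.5 and 10.9 FPKM) and Sp7 (0.73, 12.9 and 5.07 FPKM) were 4.2-fold, 4.81-fold and 8.06-fold lower. For Runx2 and Runx3 the Lgr5- library was close to the Sox9+ library, and the Lgr5+ library stood apart from both. Dlx5, a homeobox gene upstream of Runx2, was intermediate in the Lgr5- library, at 3.97, 27.1 and 15.7 FPKM.

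Another set of maturation genes was low in both E14.5 libraries. Panx3, a channel protein of prehypertrophic chondrocytes and osteoblasts, stood at 1.14 FPKM in Lgr5+ cells, 27.7 FPKM in Sox9+ cells and 1.16 FPKM in Lgr5- cells, 13.4-fold lower. Smpd3, the neutral sphingomyelinase required for bone and cartilage mineralization, stood at 0.19 FPKM in Lgr5+ cells, 30.7 FPKM in Sox9+ cells and 0.29 FPKM in Lgr5- cells, 26.6-fold lower and the lowest ratio outside the heat shock and copy genes among genes above 0 in both libraries. Spp1, osteopontin, stood at 2.13, 14.7 and 2.5 FPKM, and Ibsp, bone sialoprotein, at 3 FPKM in the Sox9+ library while it was listed at 0 in both E14.5 libraries. Col10a1, the hypertrophic collagen, was low throughout, at 2.24, 5.85 and 2.17 FPKM. The phosphatase gene Alpl was 7.89-fold lower, at 1.2, 16.4 and 5.16 FPKM. Pthlh, the secreted brake on maturation, was the higher member (50.1, 21.3 and 11 FPKM), and its receptor gene Pth1r stood at 72.3, 106 and 131 FPKM.

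Of 9 measured mineralization genes (15 listed) 5 were at least 2-fold lower and none higher, with a median of −1.03, 4 of those 5 are also maturation genes, and 2 of the 5 passed the minimum only through the Sox9+ library. Mgp, the inhibitor matrix Gla protein, stood at 295, 348 and 133 FPKM, and the phosphate and pyrophosphate genes Slc20a2 (16.9, 10.4 and 16.96 FPKM), Enpp1 (11.2, 6.88 and 6.35 FPKM) and Ank (6.16, 5.79 and 6.06 FPKM) lay within 2-fold. The perichondrium and bone list went both ways, with 3 of 16 measured members higher and 4 lower, and its median of −0.08 became 0.08 after TPM rescaling. Postn, periostin, was 2.28-fold higher (81.99, 35.5 and 52.9 FPKM) and Cdh11, osteoblast cadherin, 2.38-fold higher (169, 70.4 and 110.2 FPKM), while the lower members were the factor genes Dlx3 (1.26, 6.69 and 3.11 FPKM), Dlx5, Dlx6 (0.58, 3.85 and 1.49 FPKM) and Foxc2 (7.93, 22.9 and 20.1 FPKM).

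**Figure D3:**
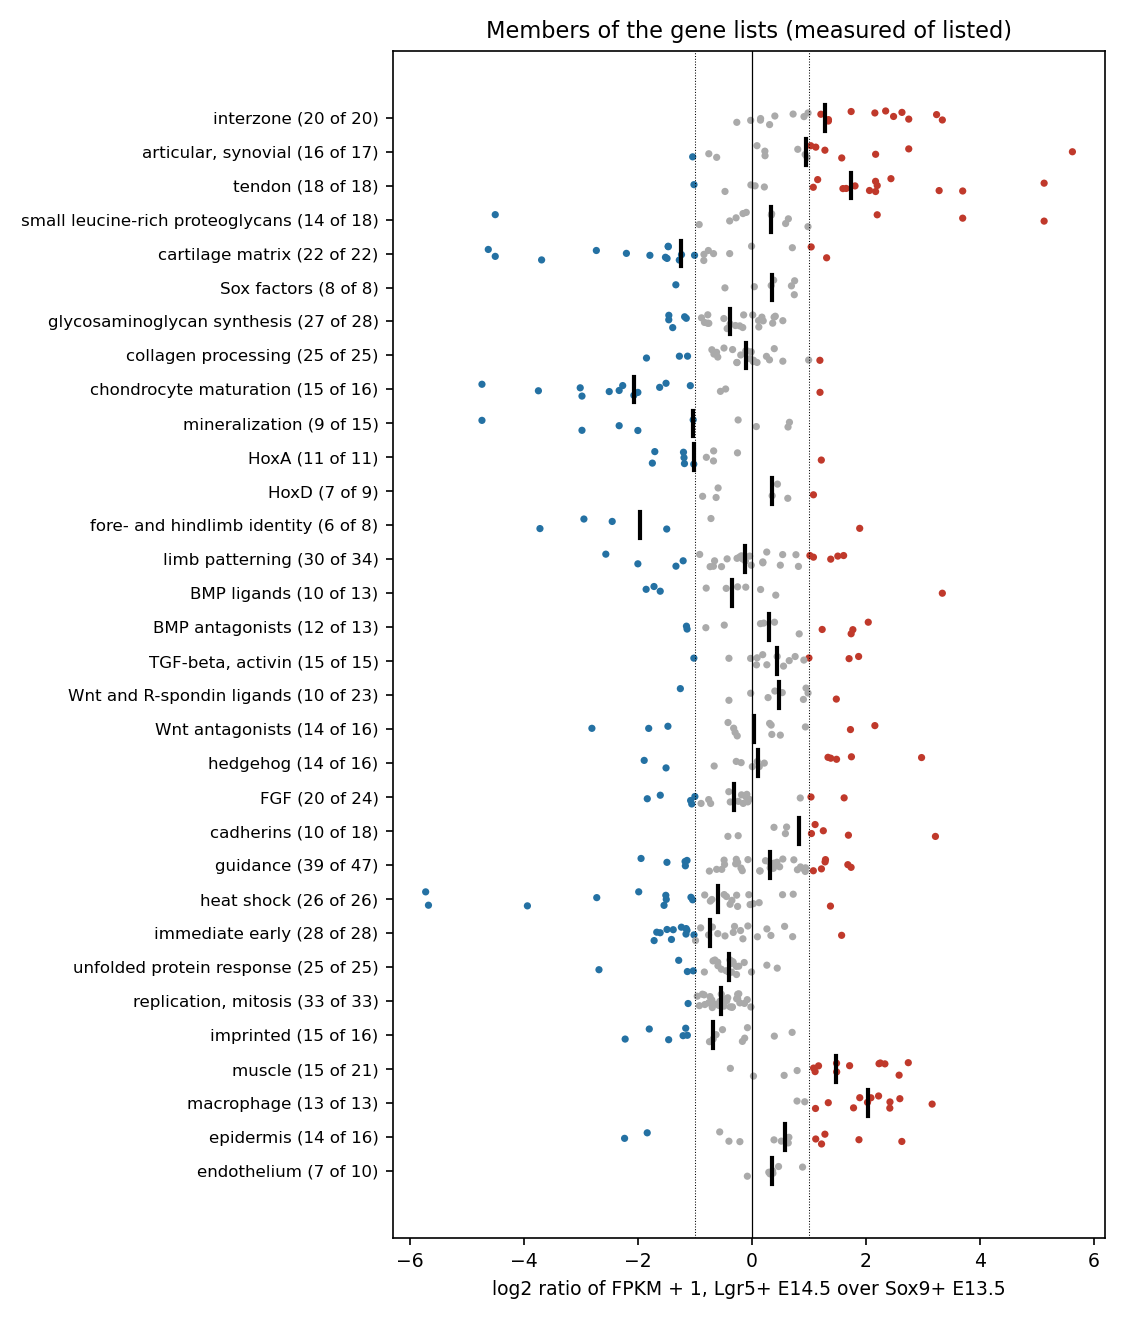
Log2 ratio of FPKM + 1, Lgr5+ over Sox9+, for each measured member of 32 gene lists (1 point per gene), with a black bar at the list's median, dotted lines at 2-fold, and the number measured of the number listed in brackets. The tendon median lies to the right, at 1.73, and chondrocyte maturation to the left, at −2.07, and most lists have members on both sides of 0.

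Hox genes, whose clusters pattern the limb from shoulder to fingertip, differed within and between clusters. In the HoxA cluster 6 of 11 genes were at least 2-fold lower and 1 at least 2-fold higher, with a median of −1.02, and 3 of the 6 passed the minimum only through the Sox9+ library. The higher gene was Hoxa13, the most distal member, which patterns the digits, at 71.3 FPKM in Lgr5+ cells, 30.1 FPKM in Sox9+ cells and 78.4 FPKM in Lgr5- cells, 2.32-fold higher. Its neighbours Hoxa11 (5.02, 12.7 and 4.44 FPKM) and Hoxa10 (34.2, 79.98 and 48.7 FPKM), which act in the middle and upper limb, were 2.28-fold and 2.30-fold lower. Hoxa5 was 3.35-fold lower, at 1.97, 8.96 and 2.36 FPKM. In the HoxD cluster 1 of 7 measured genes was at least 2-fold higher and none lower, with a median of 0.36 that became −0.14 with no minimum. Hoxd13 was 2.11-fold higher (134, 62.8 and 149 FPKM), Hoxd10, Hoxd11 and Hoxd12 lay above the Sox9+ library within 2-fold, and Hoxd9 (7.05, 11.1 and 5.75 FPKM) and Hoxd8 (2.08, 3.76 and 0.6 FPKM) lay below it within 2-fold. In both clusters the paralog 13 gene of the Lgr5- library stood near that of the Lgr5+ library.

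Hoxc10 stood at 0.37 FPKM in Lgr5+ cells, 17.02 FPKM in Sox9+ cells and 0.21 FPKM in Lgr5- cells, 13.2-fold lower, and Hoxc9 at 0.34, 6.32 and 0.06 FPKM. Both are known as genes of the hindlimb. The 3 measured HoxC genes were all at least 2-fold lower, and since they passed the minimum only through the Sox9+ library nothing is read from that count. The hindlimb selector gene Pitx1 stood at 56.5, 161 and 83.2 FPKM, 2.82-fold lower, and Tbx4 at 21.99, 36.8 and 28.02 FPKM. Isl1, a factor of early hindlimb outgrowth, stood at 0.02, 6.86 and 0.14 FPKM. Tbx5, the forelimb selector, was 3.71-fold higher, at 20.9, 4.92 and 11.9 FPKM. Both E14.5 libraries are labelled forelimb and the labels name no limb for the Sox9+ library, so limb and stage cannot be told apart in these genes. Pitx1 and Tbx4 were above 20 FPKM in the forelimb libraries too.

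**Figure D4:**
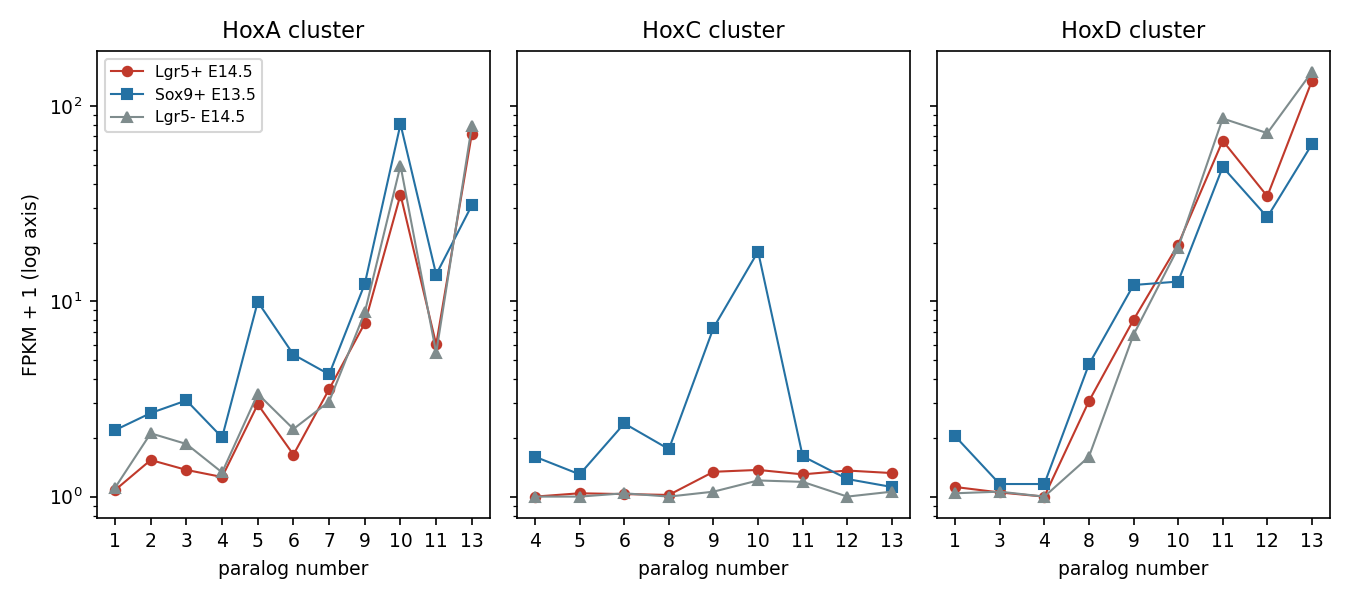
FPKM + 1 on a log axis for the genes of the HoxA, HoxC and HoxD clusters, ordered by paralog number, with 1 line per library. Hoxa13 and Hoxd13 are higher in both E14.5 libraries than in the Sox9+ library, whereas Hoxc9 and Hoxc10 are highest in the Sox9+ library.

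The remaining limb patterning genes had 5 of 30 measured members higher and 4 lower, and a median of −0.13 that became 0.19 among genes at 10 FPKM or more. Of the 4 lower genes 2 passed the minimum only through the Sox9+ library. Shox2, a homeobox gene of the proximal limb, was 5.91-fold lower (8.69, 56.2 and 9.93 FPKM) and Meis1, another proximal marker, 4-fold lower (0.48, 4.92 and 0.42 FPKM). Both were low in each E14.5 library. Higher were Gli3, the hedgehog-regulated factor that sets digit number, at 60.8, 22.7 and 32.6 FPKM, and Tfap2b at 8.42, 2.09 and 13.1 FPKM. Msx1 (67.3, 37.8 and 117 FPKM) and Prrx2 (91.2, 76.03 and 263 FPKM), homeobox genes of undifferentiated limb mesenchyme, lay within 2-fold and were highest in the Lgr5- library.

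Among BMP ligands 1 of 10 measured genes was at least 2-fold higher, Gdf5, and 3 were lower, with a median of −0.35. Bmp2 stood at 16.1, 60.7 and 18.2 FPKM, 3.62-fold lower, Bmp5 at 2.69, 10.2 and 4.5 FPKM and Gdf10 at 32.02, 108 and 86.3 FPKM. The closest relative of Gdf5 on the list, Gdf6, was low in all libraries (1.7, 1.43 and 3.52 FPKM). Of 12 measured BMP antagonists 4 were higher and 2 lower, with a median of 0.30. Nbl1 was 4.11-fold higher (116, 27.5 and 157 FPKM), the chordin relative Chrdl2 2.35-fold higher (14.3, 5.52 and 0.85 FPKM) and Cer1, which binds BMPs and Nodal, 3.41-fold higher (11.04, 2.53 and 0.03 FPKM). Grem1 was 2.20-fold lower (2.71, 7.16 and 1.11 FPKM) and Bmper 2.22-fold lower (5.08, 12.5 and 10.3 FPKM). Of 15 receptor and target genes 1 was higher and 1 lower, with a median of −0.33. The higher gene was Smad1, a BMP signal transducer (59.3, 25.4 and 32.4 FPKM), and the lower was Smad9, another (0.52, 2.06 and 0.79 FPKM), which came within 2-fold under at least 1 other scaling. The receptor gene Bmpr1b, through which Gdf5 signals, stood at 16.2, 9.43 and 9.12 FPKM, and the target genes Id1 (1047, 1568 and 1117 FPKM), Id2 and Id3 lay below the Sox9+ library within 2-fold.

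TGF-beta and activin genes had a median of 0.44, with 2 of 15 higher and 1 lower. Inhba, the activin A subunit, stood at 74.2, 19.6 and 6.76 FPKM, 3.66-fold higher, and Tgfb2 at 120.3, 36.2 and 27.4 FPKM, 3.26-fold higher. Tgfb3 (60.6, 35.4 and 49.3 FPKM) lay within 2-fold. Tgfb1 was the lower member (2.27, 5.62 and 4.07 FPKM), and it came within 2-fold under at least 1 other scaling.

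Wnt pathway genes past 2-fold went both ways among ligands, receptors, antagonists and targets. Of 10 measured ligand genes 1 was higher and 1 lower, and the 10 targets and TCF factors had 1 higher and 2 lower. Over all measured genes 8.29% were past 2-fold in either direction. The ligand gene Wnt11 was 2.79-fold higher (43.3, 14.9 and 23.2 FPKM) and the R-spondin gene Rspo3 2.39-fold lower (1.74, 5.54 and 6.94 FPKM), while Wnt5a stood at 76.5, 39.1 and 95.5 FPKM, and 10 of 23 listed ligand genes were measured. Receptor genes had 1 of 18 higher, Lgr5, and 1 lower, Fzd7 (13.1, 29.9 and 19.6 FPKM), and their median of −0.06 became 0.09 after TPM rescaling. Lgr4, the more widely expressed relative of Lgr5, stood at 76.1, 40.8 and 28.3 FPKM. Of 14 measured antagonist genes 2 were higher and 3 lower, and the median of 0.03 became −0.02 with upper quartile scaling. Besides Dkk3 the higher gene was Dkk2 (11.99, 2.92 and 30.03 FPKM). Frzb, a secreted Frizzled-related protein of cartilage, stood at 2.12, 20.8 and 1.77 FPKM, 6.99-fold lower, Sfrp5 at 0.36, 3.77 and 1.11 FPKM and the Wnt deacylase gene Notum at 1.54, 6.05 and 2.46 FPKM. Among 10 pathway targets and TCF factors, Nkd2 was 2.33-fold higher (14.4, 5.62 and 32.5 FPKM), Lef1 2.30-fold lower (12.7, 30.5 and 36.3 FPKM) and Myc 3.05-fold lower (55.7, 172 and 29.3 FPKM), and the feedback gene Axin2 stood at 3.13, 2.12 and 8.94 FPKM.

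The hedgehog list had 5 of 14 measured members higher and 2 lower, with a median of 0.11. The higher genes encode modulators and transcription factors. Hhip, the decoy receptor that is itself a hedgehog target, was 7.86-fold higher (30.2, 2.97 and 4.94 FPKM). The co-receptor genes Cdon (28.96, 7.94 and 10.9 FPKM) and Gas1 (285, 112 and 251 FPKM) and the effectors Gli2 (38.2, 13 and 19.7 FPKM) and Gli3 were higher, while the targets Ptch1 (20.5, 33.01 and 27.6 FPKM) and Gli1 (16.03, 18.4 and 26.8 FPKM) lay within 2-fold. Foxf1 (listed as Foxf1a) was 3.70-fold lower (1.26, 7.37 and 0.58 FPKM).

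In the FGF list 2 of 20 measured members were higher and 5 lower, with a median of −0.31. Fgf18 was 3.07-fold higher (48.4, 15.1 and 25.3 FPKM) and the receptor gene Fgfr2, of prechondrogenic mesenchyme, 2.05-fold higher (145.29, 70.3 and 56.7 FPKM). Fgfr2 lay close to 2-fold, and its call under other scalings was not checked. Fgfr3, the receptor of proliferating chondrocytes, was 2.08-fold lower (41.7, 87.7 and 36.8 FPKM) and came within 2-fold under at least 1 other scaling. The feedback inhibitors Dusp6 (45.4, 165 and 43.3 FPKM) and Spry4 (6.23, 21.03 and 11.3 FPKM) were 3.57-fold and 3.05-fold lower. Among genes of the EGF family Btc, the ligand betacellulin, was 13.8-fold higher, at 19.2 FPKM in Lgr5+ cells, 0.46 FPKM in Sox9+ cells and 0.56 FPKM in Lgr5- cells. Its fellow ligand genes Areg (0.36, 3.41 and 0.64 FPKM), Tgfa (1.99, 7.57 and 2.66 FPKM) and Hbegf (8.09, 22.4 and 7.14 FPKM) were each at least 2-fold lower, and the receptor gene Egfr stood at 19.8, 11.4 and 8.01 FPKM.

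Of 15 measured Notch genes Hes6 (56.1, 25.6 and 39.2 FPKM) and Hes1 (605, 298 and 285 FPKM) were higher and Hey1 (12.9, 40.5 and 11.97 FPKM) and Lfng (0.61, 2.22 and 0.55 FPKM) lower, of which Hes1 and Lfng came within 2-fold under at least 1 other scaling. In the retinoic acid list 14 of 16 measured genes lay within 2-fold, as did most measured genes (11456 of 12492). Aldh1a2, which makes retinoic acid, was 6.18-fold lower, at 4.41, 32.5 and 26.1 FPKM, with the Lgr5- library near the Sox9+ library, and the retinol carrier gene Rbp4 2.17-fold higher (21.6, 9.44 and 7.51 FPKM). The insulin-like growth factor list had 3 of 10 measured members at least 2-fold higher, none lower and 7 within 2-fold. Its median of −0.01 became 0.14 after TPM rescaling. The higher members were the binding protein genes Igfbp7 (102, 29.8 and 52.5 FPKM), Igfbp2 (131, 45.04 and 133 FPKM) and Igfbp4 (583, 271 and 482 FPKM). The ligand gene Igf2 stood at 554, 585 and 315 FPKM.

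Of 10 measured cadherins (18 listed) 5 were at least 2-fold higher and none lower, with a median of 0.83. Cdh13, a cadherin anchored by lipid in the membrane, led at 35.4 FPKM in Lgr5+ cells, 2.91 FPKM in Sox9+ cells and 2.97 FPKM in Lgr5- cells, 9.31-fold higher, and N-cadherin, Cdh2, stood at 13.2, 8.47 and 21.4 FPKM. Cdh15, the muscle cadherin, was also among the 5 higher genes (4.43, 0.68 and 1.18 FPKM), and of these it alone passed the minimum only through the Lgr5+ library. Among 39 measured guidance genes 6 were higher and 5 lower, with a median of 0.32. The semaphorin gene Sema3c was 3.34-fold higher (118, 34.5 and 14.9 FPKM), Sema3e 2.33-fold higher (8.8, 3.21 and 3.2 FPKM) and their co-receptor gene Nrp1 2.45-fold higher (19.2, 7.28 and 13.8 FPKM), whereas Nrp2 was 2.20-fold lower (12.7, 29.2 and 21.4 FPKM) and the ephrin receptor gene Epha2 3.85-fold lower (4.68, 20.9 and 4.24 FPKM). Of 13 measured integrins Itga11, a collagen receptor subunit of fibroblasts, was higher at 81.9, 17.5 and 16.04 FPKM. Itga10, its chondrocyte counterpart, was lower at 0.27, 1.81 and 0.85 FPKM, but it passed the minimum only through the Sox9+ library, which fixed its direction. Of 18 measured matricellular genes 3 were higher and 2 lower, with a median of 0.16. The fibulin gene Efemp1 was 3.54-fold higher (34.7, 9.08 and 12.1 FPKM), and fibronectin, Fn1, stood at 122, 112 and 113 FPKM. Of 7 measured connexin and pannexin genes, which form channels between or out of cells, Gja5 was 2.53-fold higher (1.58, 0.02 and 0.16 FPKM) and Panx3 lower. Gja5 passed the minimum only through the Lgr5+ library, which fixed its direction. The most abundant connexin gene of the Sox9+ library, Gja1, stood at 56.8, 69.1 and 51.5 FPKM.

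Heat shock chaperones, which refold proteins after heat or other stress, gave the lowest ratios of genes above 0 in both libraries. Of 26 measured genes 10 were lower in Lgr5+ cells by 2-fold or more and 1 was higher, with a median of −0.59. The inducible Hsp70 genes Hspa1a and Hspa1b head the list. Hspa1a stood at 20.2 FPKM in Lgr5+ cells, 1116 FPKM in Sox9+ cells and 16.1 FPKM in Lgr5- cells, 52.7-fold lower, and Hspa1b at 16.3 FPKM in Lgr5+ cells, 880.1 FPKM in Sox9+ cells and 12.6 FPKM in Lgr5- cells, 50.99-fold lower. Their coding sequences were identical at 1915 of 1923 aligned bases, so how reads were split between them is uncertain, and both had the same direction. Both E14.5 libraries were low and close together, and the Sox9+ library stood alone. Hspb1, the small heat shock protein Hsp27, stood at 17.1, 276 and 11.3 FPKM, 15.3-fold lower, and the Hsp110 gene Hsph1 at 25.8, 176 and 23.5 FPKM.

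The upstream sequences of 4 of these genes are shown because heat-inducible genes are known to carry repeats of a short element bound by heat shock factors, and these genes were lower together. Each is RefSeq sequence on the gene's strand from GRCm38.p6, 5′ to 3′, and those of Hspa1a, Hspa1b and Hspb1 hold the 250 bases before the start, which lie in no annotated exon. Capitals mark every match to a pair of inverted units, which is GAA, any 2 bases and TTC, or TTC, any 2 bases and GAA, each of which reads the same on both strands. Hspa1a and Hspa1b lie at chr17:34972157-34972406 and chr17:34959239-34959488 (minus strand), Hspb1 at chr5:135887669-135887918 (plus strand), and Hspe1 at chr1:55088053-55088082 (plus strand), where only the 30 bases around the matches are given because an annotated exon of Hspd1, on the opposite strand, covers them.
Hspa1a: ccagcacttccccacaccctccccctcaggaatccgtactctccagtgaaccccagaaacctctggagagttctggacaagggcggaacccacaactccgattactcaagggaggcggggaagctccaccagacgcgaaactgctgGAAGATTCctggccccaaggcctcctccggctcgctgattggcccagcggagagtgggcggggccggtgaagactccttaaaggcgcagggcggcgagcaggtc
Hspa1b: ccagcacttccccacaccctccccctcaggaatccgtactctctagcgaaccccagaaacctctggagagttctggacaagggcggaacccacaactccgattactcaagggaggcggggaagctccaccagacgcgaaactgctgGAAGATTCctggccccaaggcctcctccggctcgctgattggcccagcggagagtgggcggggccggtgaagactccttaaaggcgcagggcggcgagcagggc
Hspb1: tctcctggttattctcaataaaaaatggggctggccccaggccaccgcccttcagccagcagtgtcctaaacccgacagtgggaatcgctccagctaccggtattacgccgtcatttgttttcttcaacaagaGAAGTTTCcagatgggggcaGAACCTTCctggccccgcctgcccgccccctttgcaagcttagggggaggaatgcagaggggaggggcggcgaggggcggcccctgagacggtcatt
Hspe1: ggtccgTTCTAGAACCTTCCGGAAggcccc

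The Hspa1a and Hspa1b sequences were identical at 247 of 250 bases, and each held 1 match, whose first base lay 104 bases before the start. Hspb1 held 2 matches, beginning 117 and 97 bases before the start. In Hspe1 3 overlapping matches began 89, 84 and 79 bases before the start and formed the extended element, which is 3 alternating units (GAA, TTC, GAA or TTC, GAA, TTC) with any 2 bases between units. Hspd1 and Hspe1, which encode the mitochondrial Hsp60 and Hsp10 chaperones, lie head to head around this stretch and differed by similar folds, with Hspd1 2.85-fold lower (107, 306 and 99.5 FPKM) and Hspe1 2.91-fold lower (246, 716 and 232 FPKM). Exons of the pair overlap on opposite strands in the full GENCODE set, so some of their reads cannot be told apart.

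The search was added after the values were seen and covered both strands of the 250 bases before each start. Of the 26 heat shock genes 21 had a promoter entry. The paired element was found in 7 of the 8 that were at least 2-fold lower and in 2 of the other 13 (Dnaja1 and Fkbp4), and in 3932 of all 27025 genes with an entry, a gene counting when any of its windows held it. The 7 genes include the near-identical pair Hspa1a and Hspa1b and the pair Hspd1 and Hspe1, which share a stretch, so they are not 7 separate sequences. The split used the ratios of this same comparison, and no test of it was made, so nothing is read from these counts. Dnajb1, 2.83-fold lower (72.5, 207 and 64.3 FPKM), was the lower gene with an entry and no match. The extended element was found in 0.514% of all genes, and among heat shock genes in Hspd1 and Hspe1. Matches to letters describe the sequence and are not binding sites. Hspa8, Hsp90aa1, Hsp90ab1, Cryab and Hsf1 had no entry.

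Other chaperones were less far apart. Hsp90aa1, the inducible Hsp90, was 3.96-fold lower (116, 461 and 119 FPKM), while the constitutive Hsp90ab1 stood at 829, 1162 and 826 FPKM. Hspa8, the constitutive Hsp70, was among the largest differences in level (1576, 3239.9 and 1390.1 FPKM), though it came within 2-fold under at least 1 other scaling. The heat shock factor genes lay within 2-fold, Hsf1 at 31.1, 28.4 and 26.5 FPKM and Hsf2 at 5.8, 10.3 and 6.31 FPKM. Cryab, a small heat shock protein of muscle and lens, was the higher member, at 4.79, 1.23 and 0.83 FPKM.

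**Figure D5:**
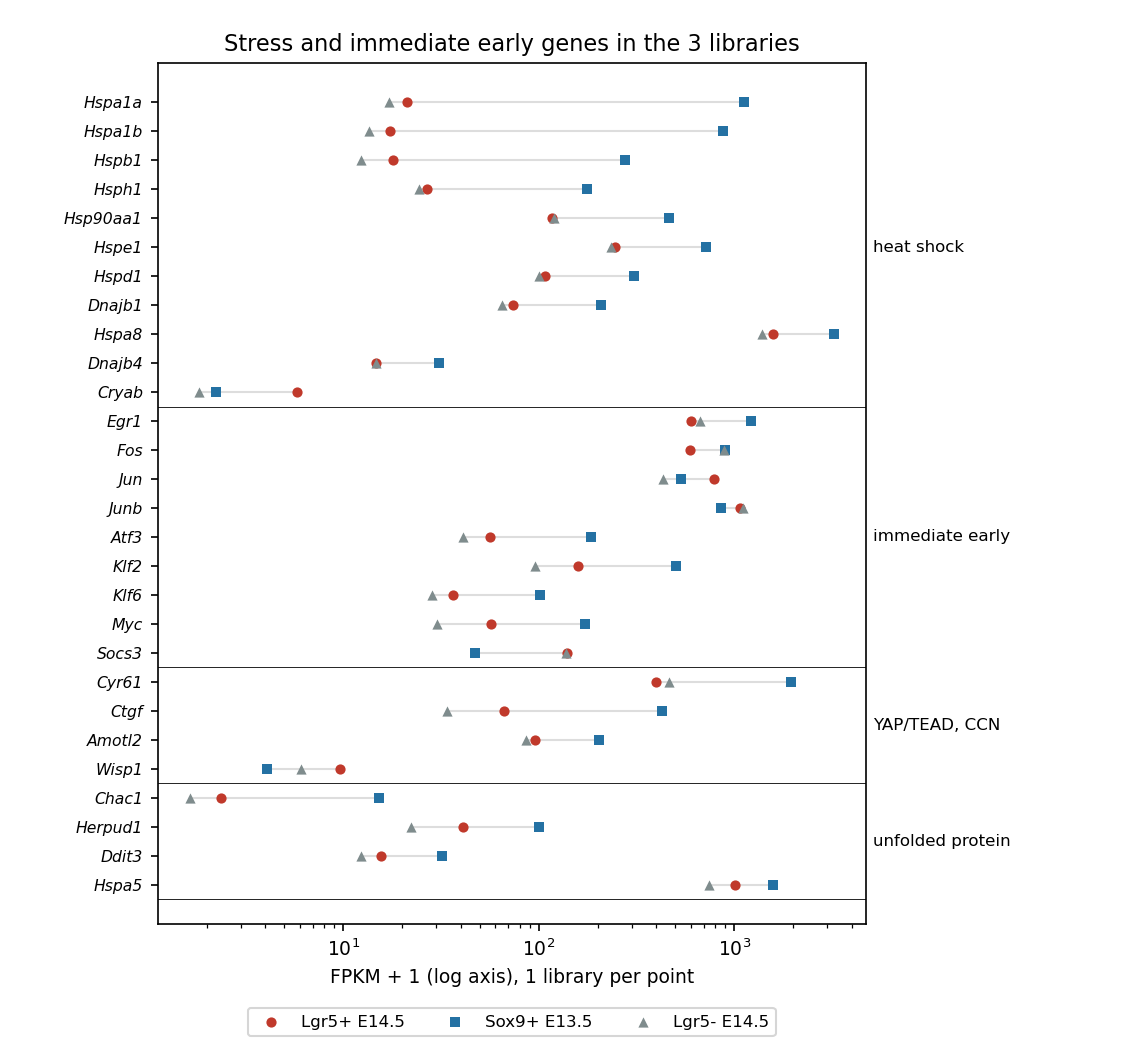
FPKM + 1 on a log axis for heat shock, immediate early, CCN and YAP/TEAD, and unfolded protein response genes, with 1 point for each of the 3 libraries. For Hspa1a, Hspa1b, Hspb1, Hsph1 and Hsp90aa1 the Lgr5+ and Lgr5- points lie together and the Sox9+ point lies far to the right, while Jun, Junb and Fos are high in all 3 libraries.

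Immediate early genes, which respond within minutes to growth factors and to cell handling, ranged widely in level. Of 28 measured genes 11 were lower in Lgr5+ cells by 2-fold or more and 1 was higher, with a median of −0.73. Fos stood at 589.8, 893 and 891 FPKM, Jun at 791, 531 and 432 FPKM and Junb at 1073, 852 and 1106 FPKM, high in every library and all within 2-fold, while Fosl1 (0.36, 2.03 and 0.51 FPKM) and Egr3 (2.08, 6.26 and 4.61 FPKM) were low in each and at least 2-fold lower. Larger differences included those of Atf3 (55.3, 184 and 39.8 FPKM, 3.28-fold lower), Klf2 (157, 501 and 94.9 FPKM, 3.18-fold lower) and Klf6 (35.2, 101 and 27.6 FPKM, 2.81-fold lower). Socs3, an inhibitor of cytokine signalling, was the higher member at 139, 46.03 and 138 FPKM. A pair of targets of the YAP and TEAD factors that belong to the CCN family had large differences in level. Cyr61 (Ccn1) stood at 397 FPKM in Lgr5+ cells, 1943 FPKM in Sox9+ cells and 464 FPKM in Lgr5- cells, 4.89-fold lower, and Ctgf (Ccn2) at 65.2, 426 and 32.8 FPKM, 6.45-fold lower, while the family member Wisp1 was 2.37-fold higher (8.68, 3.08 and 5.11 FPKM). The factor genes themselves lay within 2-fold, Yap1 at 19.1, 20.5 and 25.98 FPKM and Tead2 at 86.8, 71.6 and 84 FPKM.

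Genes of the unfolded protein response had a median of −0.40, with 4 of 25 at least 2-fold lower and none higher. Chac1, a target of the ATF4 branch, was 6.42-fold lower (1.38, 14.3 and 0.64 FPKM) and Herpud1 2.44-fold lower (40.2, 99.3 and 21.1 FPKM), while the chaperone gene Hspa5 stood at 1009, 1582 and 740.2 FPKM. All libraries are described with the same digestion of 20 minutes, and the part of handling in these differences was not tested. The ribosomal RNA precursor Rn45s took 1.86% of summed FPKM in Lgr5+ cells, 6.43% in Sox9+ cells and 6.13% in Lgr5- cells.

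Proliferation genes leaned lower, mostly within 2-fold. All 33 genes of DNA replication and mitosis were measured and 32 lay within 2-fold, as did 11456 of all 12492 measured genes. The median of the list was −0.54, against 0.06 over all measured genes. Its sums were 1113 FPKM in Lgr5+ cells and 1552 FPKM in Sox9+ cells. Mki67 stood at 15.3, 30.6 and 16.98 FPKM, Top2a at 42.8, 72.5 and 34.3 FPKM and the replication helicase gene Mcm2 at 66.7, 73.2 and 56.2 FPKM, and the replication licensing gene Cdt1 was the gene past 2-fold (17.6, 39.4 and 20.4 FPKM), within 2-fold under at least 1 other scaling. Cdkn1a, the p21 inhibitor, was 2.39-fold lower (6.28, 16.4 and 4.89 FPKM), while Cdkn1c, the p57 inhibitor, was abundant in all libraries (1855, 2083 and 1089 FPKM). Imprinted growth genes had 6 of 15 measured genes lower by 2-fold or more and none higher, with a median of −0.68. Peg10 was 4.67-fold lower (2.4, 14.9 and 3.71 FPKM), Phlda2 3.48-fold lower (31.6, 113 and 46.02 FPKM), Plagl1 2.75-fold lower (32.9, 92.2 and 20.98 FPKM) and Mest 2.24-fold lower (426, 955 and 392.43 FPKM). H19 (1272, 968 and 564 FPKM) and Igf2, neighbours with opposite parental expression, lay within 2-fold. For Peg10, Phlda2, Plagl1 and Mest the Lgr5- value was nearer to the Lgr5+ value. Of 29 genes of glycolysis and hypoxia 27 lay within 2-fold, with Ddit4 higher (34.8, 14.4 and 17.3 FPKM) and Car9 lower (0.86, 3.24 and 0.68 FPKM), and their median of −0.10 became 0.06 after TPM rescaling.

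Markers of other cell types differed in both directions. Macrophage genes were higher in the Lgr5+ library in 11 of 13 cases, with a summed level of 114 FPKM against 15.2 FPKM in Sox9+ cells and 67.3 FPKM in Lgr5- cells. C1qb, a complement subunit made by macrophages, stood at 32.5, 2.75 and 10.3 FPKM, the receptor gene Csf1r at 3.86, 0.31 and 3.06 FPKM, and Aif1 at 3.25 FPKM while it was listed at 0 in the Sox9+ library. Of the 11 genes 6 passed the minimum only through the Lgr5+ library, so nothing is read from their count. Muscle genes were at least 2-fold higher in 11 of 15 measured cases (21 listed), 4 of which passed the minimum only through the Lgr5+ library. The myogenic factor genes Myod1 (8.77, 0.46 and 1.69 FPKM) and Myog (15.5, 2.28 and 5.97 FPKM) and the troponin gene Tnnt1 (30, 4.18 and 6.14 FPKM) led, and Pax7 and Myf6 were listed at 0 in the Sox9+ library. Epidermal genes went both ways, with 5 of 14 measured members higher, such as Krt5 (12.6, 4.61 and 1.24 FPKM), and 2 lower, Krt8 (0.77, 5.32 and 1.3 FPKM) and Krt18 (4.93, 26.9 and 9.41 FPKM), and sums of 86.2 and 77.5 FPKM. Of these genes, 2 of the 5 higher and 1 of the 2 lower passed the minimum through 1 library only.

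None of the 7 measured endothelial genes reached 2-fold, and their sums were 17.8 FPKM and 13.49 FPKM. Red blood cell genes summed to 158 FPKM in Lgr5+ cells and 151 FPKM in Sox9+ cells, against 4015 FPKM in Lgr5- cells. The globin copies Hba-a1 (66.6, 23.03 and 2043 FPKM) and Hba-a2 (0.16, 25.3 and 262 FPKM) went opposite ways and are uncertain, since their transcripts were 99.8% identical. Mast cell and neutrophil markers summed to 10 FPKM and 3.73 FPKM, with Elane, Mcpt4, Ngp and S100a9 listed at 0 in both libraries. The Schwann cell and melanocyte sum was 9.24 FPKM against 23.1 FPKM, with Tyrp1 listed at 0 in both and Foxd3 in the Lgr5+ library. Neuronal sums were 18.5 and 25.9 FPKM, osteoclast sums 15.6 and 12.8 FPKM, and pericyte sums 91.3 and 94.9 FPKM. The part of these cell types in the differences of the other gene groups was not tested.

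Several of the highest ratios fell outside the lists. Glis1, a zinc finger factor, stood at 52.6, 4.33 and 3.54 FPKM, 10.1-fold higher. Ssc5d (listed as A430110N23Rik), a soluble scavenger receptor, stood at 51.4, 5.39 and 3.39 FPKM, Svopl, a transporter-like gene, at 15.7, 1.11 and 1 FPKM, and Chodl, a membrane lectin, at 18.6, 1.35 and 34.5 FPKM. Glis1, Ssc5d and Svopl were low in both other libraries, and Chodl was highest in the Lgr5- library. Coq8a (listed as Adck3), a kinase-like protein of coenzyme Q synthesis, stood at 35.5, 0.99 and 2.62 FPKM, 18.3-fold higher. C2cd4b, a nuclear protein gene, was among the 15 largest gains in level, at 825, 206 and 81.3 FPKM, and Tsc22d1, a TGF-beta-responsive leucine zipper gene, stood at 1069, 458 and 495 FPKM. Ubb, a polyubiquitin gene, had the largest gain in FPKM, at 4931, 2937 and 3069.6 FPKM, but lay within 2-fold.

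On the other side, the following genes were chosen after their values were seen. Foxd1, a forkhead gene of proximal limb mesenchyme, stood at 0.71, 19.5 and 3.43 FPKM, 11.97-fold lower. Hmga2, a chromatin protein of early embryonic cells, stood at 13.6, 85.2 and 23.6 FPKM, 5.91-fold lower. The inflammatory genes Cxcl1 (8.07, 69.8 and 4.1 FPKM) and Ptgs2 (1.41, 13.6 and 1.04 FPKM) were 7.81-fold and 6.06-fold lower. Both had low Lgr5- values, as the heat shock genes did.

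The most extreme ratios also held many short RNA genes, such as microRNA precursors and small nucleolar RNAs, which libraries primed on poly(A) tails capture poorly. Of 48 measured short RNA genes 32 (66.7%) were past 2-fold, and they made up 5 of the 20 highest and 13 of the 20 lowest ratios. Mir20a was listed at 700.5 FPKM in the Sox9+ library and at 0 in both others, and Mir760 at 85.5 FPKM in the Lgr5+ library and at 0 in the Sox9+ library. Very short lengths give large FPKM from few fragments, and no fold is given for genes listed at 0. Gm5506 (3.68, 136 and 2.55 FPKM), Gm1821 (1789.7, 1146 and 1117 FPKM), Gm6644 (466, 108 and 97.7 FPKM) and Erdr1 (199, 1034 and 337 FPKM) are copies or repeat-like genes and are uncertain. The cDNA kit does not mark strand, and in the basic GENCODE set exons of Adck3, Axin2, Bmp5, C2cd4b, Car9, Cdkn1a, Cdkn1c, Chrd, Chsy1, Col10a1, Col15a1, Col22a1, Cryab, Csf1r, Ctgf, Dlx6, Dnaja1, Epyc, Fgfr3, Fn1, Fosl1, Foxf1a, Gas1, Gdf5, Gja5, Gli1, Gm6644, H19, Has2, Hhip, Hmga2, Hoxa11, Hspa1a, Igf2, Igfbp7, Krt5, Krt8, Lef1, Matn2, Matn4, Mest, Notum, Pitx1, Plagl1, Prg4, Rspo3, Runx2, Shox2, Slc20a2, Smpd3, Sox4, Sox5, Tead2, Tgfa, Tgfb2, Tgfb3, Wnt11, Xist and Yap1 overlap an annotated gene on the opposite strand, so reads of the partners cannot be told apart.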

How the data were processed

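RNA of 3 sorted mouse digit cell populations was measured, 1 library each. Per the labels' protocols, digits were digested for 20 min, cells were sorted by GFP, and libraries were made from 10 ng of RNA with a low-input SMARTer kit. The aligner HISAT2 and the mouse build GRCm38 (mm10) are listed per the submitters' processing notes. Which tool and annotation gave expression values, and how multi-mapping reads were treated, was not given in the sources used here. Values were deposited by the authors as FPKM per gene symbol with 2 decimals. They are shares of a library, so a few abundant RNAs can shift all others.

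FPKM sums were 534025 (Lgr5+), 593871 (Sox9+) and 547115 (Lgr5-), with 12002, 11924 and 11969 genes at 1 FPKM or more. Read depth is unknown: a search for the step of 1 fragment over 9797 single-transcript genes scored 0.14, 0.082 and 0.191, where 1 is perfect. Each file listed the same 23284 symbols, 25 of them turned into dates and not named. Log2 ratios used a pseudocount of 1 FPKM and a minimum of 1 FPKM in the higher library, and 2-fold counted as apart. The steps were tested on simulated data. Python 3.11.15, pandas 2.3.3, numpy 2.4.6 and Biopython 1.88 were used. Of 941 symbols in 58 lists 940 matched, 12 through a synonym. Members and lists were chosen with earlier results of these data known. Named genes were the 20 highest and 20 lowest ratios, the 15 largest FPKM differences each way, the 5 largest ratios per list, members needed for a list's roles, and label checks. Gene positions and overlaps are from the basic set of GENCODE M21 (GRCm38), exons in printed sequences from its full set, and promoters from RefSeq (GRCm38.p6). Other pseudocounts, minimums, thresholds and scalings were tried.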

Additional observations from a re-analysis of the deposited data

How the results depend on the processing

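The main counts of genes at least 2-fold higher and lower in the Lgr5+ library, 541 and 495, became 900 and 785 with a pseudocount of 0.1 FPKM, 193 and 193 with 5 FPKM, 273 and 257 with a minimum of 10 FPKM, 173 and 155 at 3-fold and 1574 and 1237 at 1.5-fold, each by construction of a looser or stricter rule. Rescaling to TPM gave 981 and 533, and the shift of 0.15 in the median of all genes is part of that change, since the FPKM sums of the libraries differ. Upper quartile scaling gave 497 and 522, median of ratios 486 and 538, quantile normalization 495 and 531, and leaving the 100 most abundant genes out of the sum 554 and 486. The sum without Rn45s and Lars2, added after seeing the data, gave 628 and 443. Of the 306 genes named by rule none past 2-fold changed sign under these alternatives, and of the 216 past 2-fold 13 came within 2-fold under at least 1 of 6 scalings: Amotl2, Cdh4, Cdt1, Ddit3, Fgfr3, Hes1, Hspa8, Lfng, Rn45s, Slc20a1, Smad9, Tgfb1 and Tnc. Genes named outside that rule were not checked, so those near 2-fold, such as Fgfr2, Egr1 and Col9a1, may also come within it. The number of reads is unknown, so the counting error of low genes could not be given. No paired analysis was possible because each group has 1 library.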
